A study of Mus musculus with 8 samples.

Results

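The m6A peaks of 10 circadian clock genes were compared site by site between the livers of mice with floxed, intact *Wtap* (*Wtap* flox/flox) and of mice without hepatocyte *Wtap* (*Wtap*-HKO). The genes were *Arntl*, *Clock*, *Npas2*, *Per1*, *Per2*, *Per3*, *Cry1*, *Cry2*, *Nr1d1* and *Dbp*, and their peaks were found by gene symbol in the 3 deposited peak lists. Of these 10 genes, 7 had a peak in at least 1 genotype, among 11558 such genes in the series. The *Wtap* flox/flox list held 13 clock gene peaks of 15635, and the *Wtap*-HKO list held 11 of 19185. The list of peaks that the study called different between the genotypes held 0 clock gene peaks among its 3870.

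m6ARIP-seq compares mRNA fragments bound by an m6A antibody (IP) with the unselected fragments (input) by sequencing, and a peak is a stretch of exon where IP exceeds input. The livers came from mice of the C57BL/6J background, C57BL/6 in the labels, on normal chow at 8 weeks of age. *Wtap*-HKO mice carried floxed *Wtap* alleles deleted in hepatocytes by a Cre driven from the albumin promoter. The deletion was not aimed at the other cell types of the liver. *Wtap* flox/flox mice carried the same floxed alleles without deletion. WTAP is the regulatory subunit of the complex that writes m6A, and the comparison was made to map the m6A changes that follow its loss in hepatocytes. Each genotype had 2 IP and 2 input libraries, 8 in all, with the RNA of each replicate pooled from several mice. The replicates were combined before deposit, so that each peak has 1 value per genotype with no SD and no test. The hour at which livers were taken is not given in the sources used here.

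The circadian clock is a transcriptional feedback loop that runs in nearly every cell, and in hepatocytes it times much of metabolism. BMAL1 (the product of *Arntl*) pairs with CLOCK or NPAS2 and activates genes that include *Per1*, *Per2*, *Per3*, *Cry1*, *Cry2*, *Nr1d1* and *Dbp*. The PER and CRY proteins repress that pair, NR1D1 (REV-ERBα) represses *Arntl*, and DBP is a transcription factor that passes the rhythm on to output genes. Transcripts of most of these genes rise and fall strongly through the day. m6A deposited by the writer complex sits mainly near the stop codon and in long exons, whereas a related methylated adenosine, m6Am, sits beside the mRNA cap and is bound by antibodies to m6A as well.

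Clock gene peaks were mostly weak among the peaks of either list. Fold enrichment, the deposited linear ratio of IP over input, had a median of 3.98 over the 13 clock gene peaks of *Wtap* flox/flox livers and ranged from 1.47 to 7.65. The median over all peaks of that list was 5.51, with the middle 50% between 3.39 and 9.70. In *Wtap*-HKO livers, the 11 clock gene peaks had a median of 3.84 and ranged from 2.14 to 8.19, beside a median of 5.93 and a middle 50% of 3.64 to 11.2 over all peaks. A fold enrichment above the median of the list was found for 4 of 13 and for 1 of 11 clock gene peaks. Their length was ordinary, with a median of 270 exonic nt in each genotype beside 269 nt (*Wtap* flox/flox) and 240 nt (*Wtap*-HKO) over all peaks. Every clock gene peak lay in 1 unbroken exonic block, whereas 14.5% of all *Wtap* flox/flox peaks and 19.2% of all *Wtap*-HKO peaks crossed a splice junction.

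Peaks of the same gene and strand that shared at least 1 exonic base were joined into a site, which gave 14 clock gene sites. At 10 sites each genotype had 1 peak, 3 sites had a peak in *Wtap* flox/flox livers only, and 1 site had a peak in *Wtap*-HKO livers only. Thus 3 of 13 *Wtap* flox/flox peaks had no *Wtap*-HKO counterpart, beside 20.0% of all peaks of that list. In the other direction, 1 of 11 *Wtap*-HKO peaks had no counterpart, beside 35.4% of all. At the 10 paired sites, the ratio of fold enrichment (*Wtap*-HKO over *Wtap* flox/flox) was above 2 at 1 site, beside 14.8% of the 10805 paired sites of the series. It was below 1/2 at 0 sites, beside 12.4% of all. The median ratio of the clock gene sites was 0.975, with 5 sites above 1 and 5 below, and that of all paired sites was 1.004. The ratios of 8 of the 10 clock gene sites lay within the middle 50% of all paired sites, which ran from 0.665 to 1.58.

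**Figure D1:**
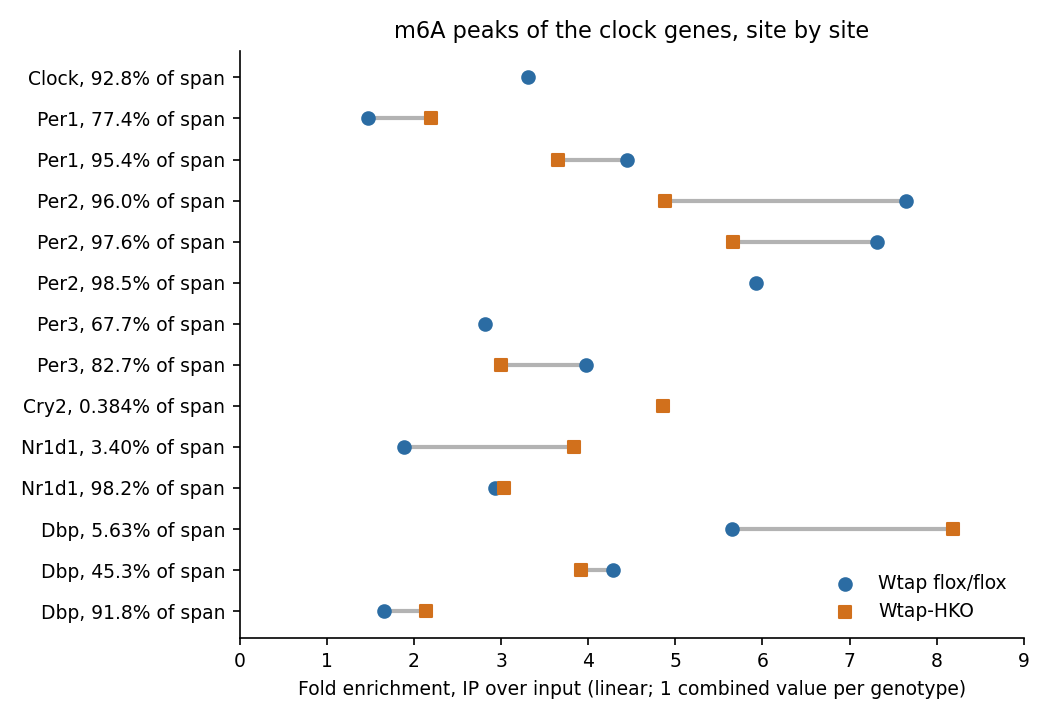
Fold enrichment (IP over input, linear axis) of each clock gene peak in *Wtap* flox/flox (blue circles) and *Wtap*-HKO livers (orange squares), 1 combined value per genotype without error bars; rows are sites, named by gene and by the position of their midpoint as a percent of the gene span from the 5′ end, and a grey line joins the peaks of a paired site. The paired *Per2* and *Per3* sites had their lower value in *Wtap*-HKO livers, and the 5′ sites of *Nr1d1* and *Dbp* had their higher value there.

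The activating arm was nearly without peaks. *Arntl* (chr7:113178471-113314126), *Npas2* (chr1:39193702-39363240) and the repressor gene *Cry1* (chr10:85131700-85185054) had 0 peaks in either genotype, which were searched by symbol and again by position on the gene's strand within its RefSeq span on GRCm38.p6. Whether such a gene carried no m6A, or too few transcripts for a peak to be called, cannot be told apart, since the lists give no read counts. Sequencing depth is unknown for the same reason.

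*Clock* (ENSMUSG00000029238, minus strand of chromosome 5) encodes the DNA-binding partner of BMAL1. Its only peak was at chr5:76216701-76216821 in *Wtap* flox/flox livers, 121 nt long, with a fold enrichment of 3.31, and no *Wtap*-HKO peak overlapped it. That peak stood at or above only 23.8% of the peaks of its list and lay 6833 nt inside the 3′ end of the gene span, at 92.8% of its length. A further peak within the *Clock* span, at chr5:76232898-76233070, was assigned by the study to another gene, ENSMUSG00000106831, which has no symbol in the lists. Its fold enrichment was 5.12 in the *Wtap* flox/flox list and 9.13 in the *Wtap*-HKO list, and it was not counted for *Clock*.

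Among the *Period* genes, the exonic sequence under peaks was shorter in *Wtap*-HKO livers for *Per2* and *Per3* and equal for *Per1*. *Per1*, *Per2* and *Per3* encode repressors of the BMAL1 and CLOCK pair, and *Per1* and *Per2* also answer quickly to hormonal and feeding signals. In *Wtap* flox/flox livers the 3 genes held 7 of the 13 clock gene peaks.

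*Per2* (ENSMUSG00000055866, minus strand of chromosome 1) had 3 neighbouring peaks in *Wtap* flox/flox livers, all within the last 5% of the gene span. The peak farthest from the 3′ end, at chr1:91417476-91417983, was enriched 7.65-fold over input in *Wtap* flox/flox livers, the highest of all clock gene peaks of that list. In *Wtap*-HKO livers it was 4.88 over a shorter peak at chr1:91417625-91417894. The ratio of 0.638, or 1.57-fold lower, was the lowest of the clock gene sites, and 23.0% of all paired sites had an equal or lower ratio. The middle peak had a fold enrichment of 7.31 at chr1:91416818-91417237 in *Wtap* flox/flox and of 5.66 at chr1:91416938-91417237 in *Wtap*-HKO livers, a ratio of 0.774. The peak nearest the 3′ end, at chr1:91416520-91416759, was listed in *Wtap* flox/flox livers only, with a fold enrichment of 5.93, at or above that of 54.0% of the peaks of its list. In all, the exonic sequence of *Per2* under peaks was 1168 nt in *Wtap* flox/flox and 570 nt in *Wtap*-HKO livers.

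*Per3* (ENSMUSG00000028957, minus strand of chromosome 4) followed the same order. Its peak at chr4:151005118-151005448 was enriched 3.98-fold over input in *Wtap* flox/flox livers, against 3.0 at chr4:151005208-151005418 in *Wtap*-HKO livers, a ratio of 0.754. The other *Per3* peak, at chr4:151012318-151012498, had a fold enrichment of 2.82 and was listed in *Wtap* flox/flox livers only. Exonic sequence under *Per3* peaks was 512 nt in *Wtap* flox/flox and 211 nt in *Wtap*-HKO livers. These peaks lay at 82.7% and 67.7% of the gene span, 8100 and 15300 nt from its 3′ end and so farther inside the gene than the *Per2* peaks.

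*Per1* (ENSMUSG00000020893, plus strand of chromosome 11) differed from *Per2* and *Per3* in that each of its peaks was listed in both genotypes. The stronger peak, 514 nt from the 3′ end at chr11:69109121-69109451, had fold enrichments of 4.45 in *Wtap* flox/flox and of 3.65 in *Wtap*-HKO livers, where it began 30 nt later. Its ratio was 0.820. The weaker peak, at chr11:69106560-69106650, was enriched 1.47-fold over input in *Wtap* flox/flox and 2.20-fold in *Wtap*-HKO livers, a ratio of 1.497. At 1.47 it was the weakest clock gene peak, at or above only 0.51% of the peaks of its list. Its *Wtap* flox/flox false discovery rate, deposited as a log10 value of -3.50, was the weakest call of any clock gene peak. Both genotypes had 422 nt of *Per1* under peaks, since 1 peak was 30 nt longer and the other 30 nt shorter.

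**Figure D2:**
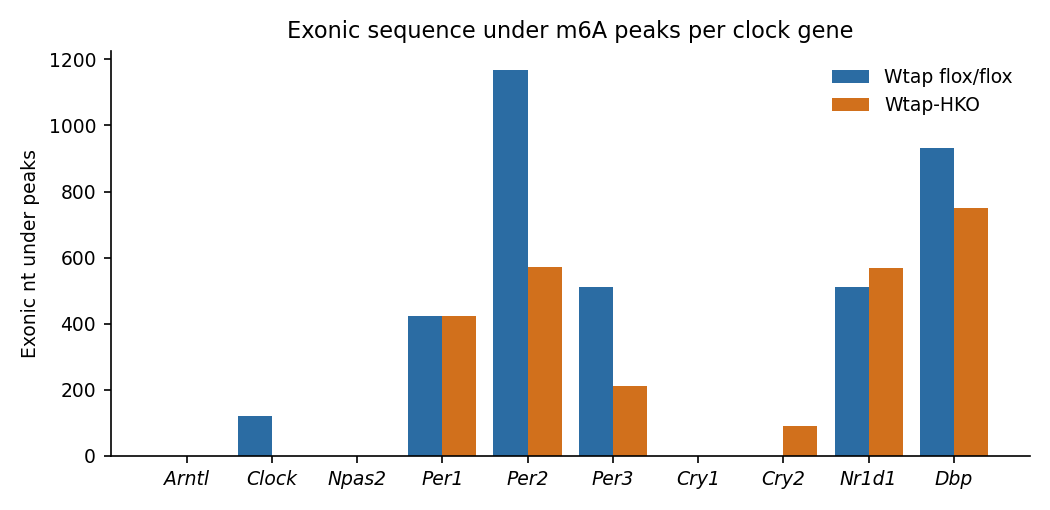
Exonic nt under m6A peaks (bars from 0) for each of the 10 clock genes in *Wtap* flox/flox (blue) and *Wtap*-HKO livers (orange), from combined lists without error bars. *Per2* had 1168 against 570 nt and *Per3* 512 against 211 nt, *Per1* had 422 nt in both, and *Arntl*, *Npas2* and *Cry1* had 0.

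*Cry2* (ENSMUSG00000068742, minus strand of chromosome 2) encodes a repressor that acts together with the PER proteins. It had a peak in *Wtap*-HKO livers only, at chr2:92433923-92434013. That peak was 91 nt long, had a fold enrichment of 4.86 and a log10 false discovery rate of -13, and lay 56 to 146 nt downstream of a RefSeq transcription start site. It was the only clock gene peak listed in *Wtap*-HKO livers alone.

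*Nr1d1* (ENSMUSG00000020889, minus strand of chromosome 11) encodes the nuclear receptor REV-ERBα, a haem-binding repressor that links the clock to lipid metabolism in liver. It had 1 peak near each end of the gene in both genotypes. The 5′ peak had a fold enrichment of 1.88 at chr11:98775004-98775243 in *Wtap* flox/flox and of 3.84 at chr11:98774945-98775243 in *Wtap*-HKO livers. This ratio of 2.04, a log2 ratio of 1.03, was the highest of the clock gene sites and the only one past 2, and 85.8% of all paired sites had an equal or lower one. With a minimum fold enrichment of 2, the *Wtap* flox/flox peak is left out and 0 clock gene sites have a ratio past 2. Its edge nearest the start site, 134 nt downstream, was in the same place in both genotypes, and the other edge reached 59 nt further in *Wtap*-HKO livers. Among all peaks of each list, the *Wtap* flox/flox peak stood at or above 3.77% and the *Wtap*-HKO peak at or above 27.6%. The 3′ peak, at chr11:98767932-98768201 in both genotypes, had fold enrichments of 2.93 and 3.03, a ratio of 1.03. It lies at the very 3′ end of *Nr1d1* and inside the RefSeq span of *Thra*, which is transcribed from the opposite strand. The library kit is not stated to keep strand, so that reads of *Nr1d1* and *Thra* there cannot be told apart.

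*Dbp* (ENSMUSG00000059824, plus strand of chromosome 7) encodes the PAR bZIP factor that drives many clock output genes of liver. It had 3 peaks in each genotype, the most of any clock gene in *Wtap*-HKO livers and as many as *Per2* in *Wtap* flox/flox livers. All 3 were paired. The 5′ peak had a fold enrichment of 5.65 at chr7:45705238-45705537 in *Wtap* flox/flox and of 8.19 at chr7:45705238-45705567 in *Wtap*-HKO livers, the highest of all clock gene peaks of that list. Its ratio was 1.45. The middle peak had a fold enrichment of 4.28 at chr7:45707185-45707634 and of 3.92 at chr7:45707185-45707394, a ratio of 0.916, and its right edge was 240 nt shorter in *Wtap*-HKO livers, the largest shift of any clock gene peak edge. The 3′ peak was weak, with 1.66 at chr7:45709694-45709874 in *Wtap* flox/flox and 2.14 at chr7:45709694-45709904 in *Wtap*-HKO livers, a ratio of 1.29. A peak of *Sphk2* on the opposite strand overlapped the 3′ peak, with fold enrichments of 2.20 and 2.74 in the same order, and reads of the 2 genes cannot be told apart there. Exonic sequence under *Dbp* peaks was 931 nt in *Wtap* flox/flox and 751 nt in *Wtap*-HKO livers.

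The 5′ peak of *Dbp* began 9 nt before the RefSeq transcription start site at position 45705247 and so reached into the RefSeq promoter window, which ends 50 bases after the start site. It was 1 of 2 sites of which some sequence could be read from such windows. The motifs searched were GGACT and AGACT on the transcribed strand, DNA spellings of the short sequences around methylated adenosines. The motif is shown with its flanks because it lies under the peak with the highest *Wtap*-HKO enrichment of the clock genes, at chr7:45705281-45705296 (plus strand, GRCm38.p6), and its capitals mark the motif:
Dbp: agagccagAGACTcgc
It was the only match among the 59 bases of the peak that could be read, 19.7% of the *Wtap* flox/flox peak and 17.9% of the *Wtap*-HKO peak. Of all RefSeq promoter windows, 3507 of 32851 (10.7%) hold GGACT or AGACT in their last 50 bases. For the 5′ peak of *Nr1d1*, 83 bases could be read, and neither motif is among them. A match is a description of the sequence and not a mapped m6A site.

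The paired sites of *Nr1d1* and *Dbp* in the first 10% of the gene span had ratios of 2.04 and 1.45, and the *Cry2* peak listed in *Wtap*-HKO livers alone lay there too. At the paired sites in the last 10%, the ratios were 0.638 and 0.774 for *Per2*, 0.820 for *Per1*, 1.03 for *Nr1d1* and 1.29 for *Dbp*. With 2 paired sites at the 5′ end, the clock genes alone show no trend, and the *Per1* site at 77.4% of the span had a ratio of 1.497, above that of the *Dbp* 5′ site. Over all paired sites that could be placed on a RefSeq span (9696, or 89.7%), ratios were higher at the 5′ end. The median ratio was 1.69 over 1506 sites in the first 10% and 0.874 over 3933 sites in the last 10%, and 35.9% and 9.15% of these sites had a ratio above 2. Read against sites at the same position, the 5′ *Nr1d1* and *Dbp* values were therefore ordinary, within the middle 50% of 1.18 to 2.28. In the last 10%, the *Per2*, *Per1* and *Nr1d1* ratios lay within the middle 50% of 0.605 to 1.285. The *Dbp* ratio there, 1.289, was just above that range. The *Per1* site at 77.4% of the span lay above the middle 50% of 0.575 to 1.287 for sites at 70 to 80%. This description by position was chosen after the data had been seen.

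**Figure D3:**
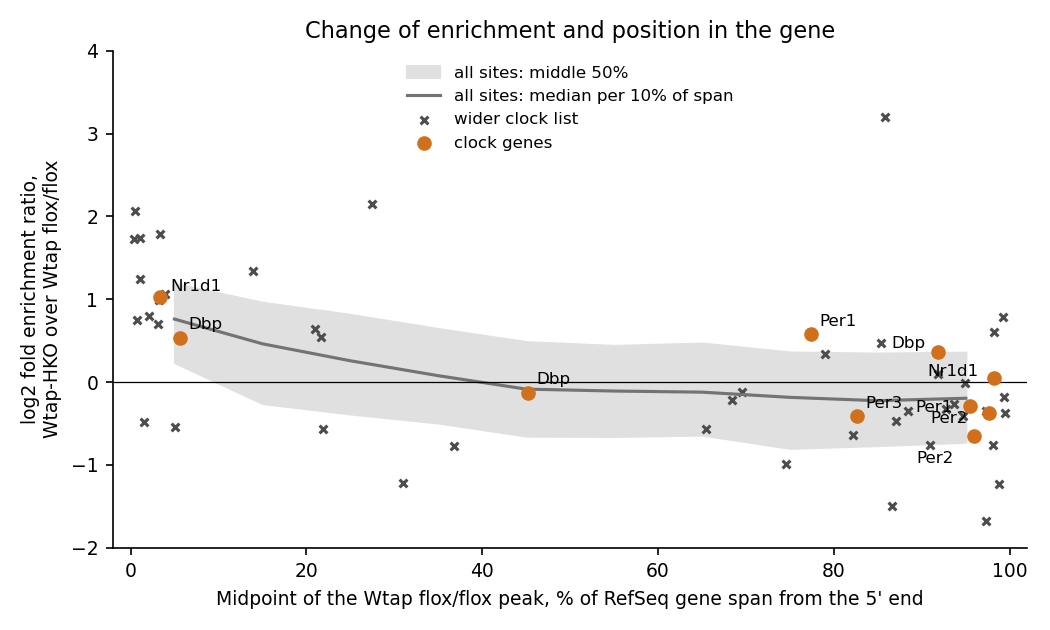
Log2 ratio of fold enrichment (*Wtap*-HKO over *Wtap* flox/flox) against the midpoint of the *Wtap* flox/flox peak as a percent of the RefSeq gene span, for paired sites of the 10 clock genes (orange circles) and of the wider clock list (crosses); the grey line and band are the median and the middle 50% of all paired sites in each 10% of the span. The sites of *Nr1d1* and *Dbp* at the 5′ end lie above 0, as does the line there, and the *Per2* and *Per3* sites lie below 0.

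The length of a peak and its fold enrichment moved together. At the 5 sites where the *Wtap*-HKO peak was shorter, the ratio was below 1, and at the 5 sites where it was longer or of equal length, the ratio was above 1. Over all paired sites the median ratio was 0.704 at the 4578 with a shorter *Wtap*-HKO peak and 1.36 at the other 6227. Peak edges that moved did so by at least 30 nt, and 9 of the 20 edges of clock gene sites were in the same place in both genotypes. In every paired clock gene site the shorter peak lay wholly within the longer. Exonic sequence under all clock gene peaks was 3664 nt in *Wtap* flox/flox and 2614 nt in *Wtap*-HKO livers, and *Per2* and *Per3* held most of the difference.

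**Figure D4:**
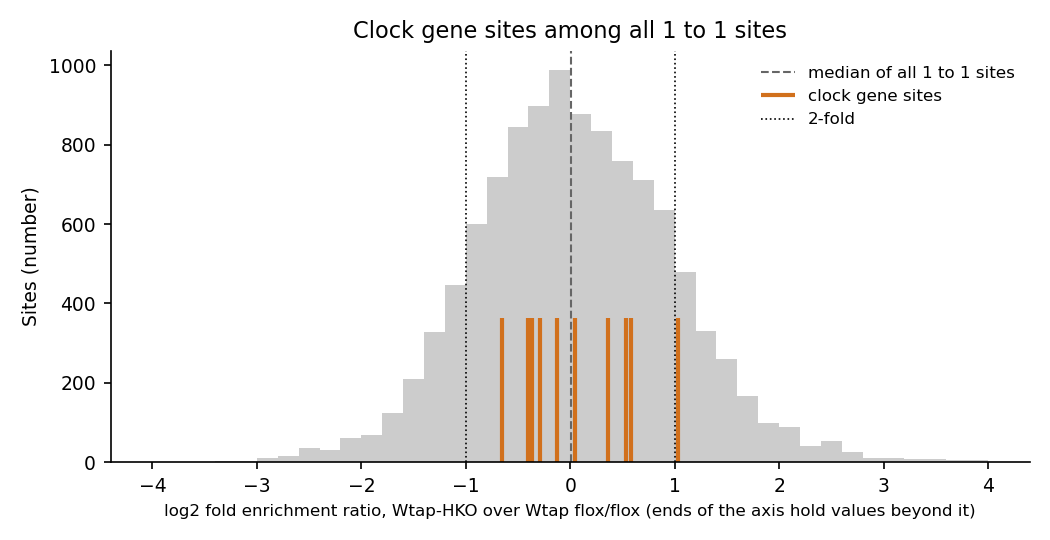
Number of paired sites of the series by log2 ratio of fold enrichment, *Wtap*-HKO over *Wtap* flox/flox (grey bars), with the 10 paired clock gene sites as orange lines of arbitrary height, the median of all sites dashed and 2-fold limits dotted. The clock gene sites lie from 0.638 to 2.04 as linear ratios, and 8 of 10 are inside the middle 50% of all sites.

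None of the 10 clock genes had a row in the list of peaks called different by the study, and 0 of its rows lay within their RefSeq spans on either strand. Of all genes with a peak in either genotype, 27.8% had a row there. The list has no row for *Nr1d1* although its 5′ ratio was past 2, and none for the 4 sites that had a peak in 1 genotype only.

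A wider list of 35 further clock genes, regulators of clock proteins among them, was described in the same way. A peak was found for 29 of them in either genotype, and for neither genotype in *Arntl2*, *Csnk2a1*, *Tipin*, *Skp1a*, *Nono* and *Wdr5*. These genes were searched by symbol alone. *Skp1a* has no RefSeq span under that symbol, and peaks listed for it under another name would have been missed. The list had 57 peaks in *Wtap* flox/flox livers, 22.8% of them without a counterpart beside 20.0% of all, and 56 in *Wtap*-HKO livers, 21.4% without one beside 35.4% of all. At its 44 paired sites the median ratio was 0.904, with 9 sites above 2 (20.5%, beside 14.8% of all) and 4 below 1/2 (9.09%, beside 12.4% of all). A row in the list of different peaks was found for 10 of the 29 genes with a peak (34.5%), beside 27.8% of all genes with a peak. Among the sites past 2-fold described below, those of *Ciart*, *Csnk1d*, *Nfil3* and *Rora* overlapped such a row. For *Csnk1e*, *Ppp1cb*, *Bhlhe41*, *Gsk3b*, *Nampt*, *Hlf*, *Csnk2b* and *Usp2* the study listed no different peak. The row of *Csnk1a1* lay at another site.

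Ratios above 2 were found in 9 genes of the wider list, kinases and a phosphatase among them. Of the 9 sites, 6 lay in the first 10% of the gene span (*Csnk1d*, *Gsk3b*, *Nampt*, *Ppp1cb*, *Ciart* and *Hlf*), where the list had 12 paired sites and where 35.9% of all paired sites exceeded 2. Fold enrichment at a site of *Csnk1e*, a casein kinase that phosphorylates PER, was 6.40 in *Wtap* flox/flox livers, against 58.7 in *Wtap*-HKO livers. The *Wtap* flox/flox log10 false discovery rate was only -6.76 there, and the peak was 330 nt long, against 839 nt in *Wtap*-HKO livers. The other 3 *Csnk1e* peaks of *Wtap*-HKO livers without a counterpart had 7.28, 11.7 and 30.3. For the paralogue *Csnk1d*, fold enrichment was 3.95 and 13.1, at a peak 20 nt from the 5′ end of the gene span. *Ppp1cb*, a catalytic subunit of protein phosphatase, had 4.07 and 13.6. The *Csnk1e* ratio, 9.17, was the highest of the wider list. Those of *Ppp1cb* (3.34) and *Csnk1d* (3.32) were below the ratios of *Bhlhe41* (4.45), *Gsk3b* (4.18) and *Ciart* (3.47). *Bhlhe41* (DEC2, a repressor at E-boxes) had 6.49 and 28.9, the kinase gene *Gsk3b* 6.27 and 26.2, and *Ciart* (CHRONO, a repressor of BMAL1 and CLOCK) 4.21 and 14.6 at a peak 36 nt from its 5′ end. The *Wtap*-HKO log10 false discovery rate was only -7.17 at the *Bhlhe41* site, beside -100 at the *Gsk3b* site. The other *Bhlhe41* peak, of 5.90, was listed in *Wtap* flox/flox livers only. The remaining sites above 2 belonged to *Nampt* (4.39 and 10.4), the rate-limiting enzyme of NAD salvage, *Hlf* (6.64 and 13.9), a PAR bZIP factor like DBP, and *Csnk2b* (2.26 and 5.72), the regulatory subunit of casein kinase CK2. The other 3 peaks of *Hlf* were listed in *Wtap* flox/flox livers only. The *Csnk2b* peaks shared only 31 nt, and where 50% of each peak had to be shared, an alternative chosen after the data had been seen, *Csnk1e*, *Ppp1cb* and *Csnk2b* had no site above 2 and 6 such sites remained in the list.

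Ratios below 1/2 were found for transcription factors and for a protease and a kinase of the clock. *Nfil3*, a repressor that competes with DBP for its sites, was enriched 9.38-fold over input in *Wtap* flox/flox and 2.93-fold in *Wtap*-HKO livers, and both of its other peaks were listed in *Wtap* flox/flox livers only. With 50% of each peak shared, the *Nfil3* site was not paired. *Rora*, the activator that opposes NR1D1 at *Arntl*, had 23.7 and 10.1. A 5′ peak of *Rora* with a fold enrichment of 21.7 and a log10 false discovery rate of -4.77 was listed in *Wtap*-HKO livers only. Another *Rora* peak, of 3.27, was listed in *Wtap* flox/flox livers only. *Usp2*, a deubiquitinase of clock proteins, had 36.4 and 15.7, and had a further peak of 4.12 in *Wtap*-HKO livers only. *Csnk1a1*, a casein kinase, had 37.3 and 13.2 at this site, whereas its 5′ site had 2.90 and 5.76, a ratio of 1.99. The genes with all their peaks in 1 genotype were *Btrc* (2 peaks, 15.4 and 3.51) and *Fbxl21* (7.47) in *Wtap* flox/flox livers and *Prkaa2* (3.87) in *Wtap*-HKO livers. Their log10 false discovery rates were only -6.44 (*Btrc*, 15.4) and -7.76 (*Prkaa2*), beside -14.1 (*Btrc*, 3.51) and -14.9 (*Fbxl21*). *Wtap* flox/flox livers had a peak for 28 of the 29 genes and *Wtap*-HKO livers for 27. Over all 11558 genes with a peak, these numbers were 9020 and 10634, so such genes were not particular to the wider list. *Btrc* and *Fbxl21* encode F-box proteins that act on PER and CRY, and *Prkaa2* encodes a catalytic subunit of AMPK, which phosphorylates CRY.

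The lists cannot show the deletion of *Wtap* itself, and *Wtap* had 3 peaks in each genotype. Of genes that hepatocytes use, *Alb* had 1 peak in each genotype, *Apob* had 8 and 9, and *Ttr* had 1 in *Wtap*-HKO and 0 in *Wtap* flox/flox livers. Fold enrichment is a ratio within each genotype and gives no transcript level. Whether clock gene transcripts differed in level or in phase between the genotypes was not tested.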

How the data were processed

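Poly(A)+ RNA was fragmented and immunoprecipitated with an m6A antibody. Per the labels, the submitters' processing notes name fastp 0.19.11, BWA 0.7.12 and HOMER 4.9.1 with GRCm38, and the methods name exomePeak for peak calling. The authors deposited 3 peak lists with replicates combined, by a rule not given in the sources used here. The fold enrichment deposited is IP divided by input, a ratio on a linear scale whose library scaling is not described. The false discovery rates deposited by the authors are log10 scores, with a lowest value of minus infinity. The differential list also holds log10 p-values, log10 false discovery rates and log2 fold changes for the difference between the genotypes, which were not used.

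Peaks were matched in Python 3.11.15 (numpy 2.4.6, pandas 2.3.3) as the connected overlaps of exonic blocks (at least 1 shared base) of 1 Ensembl gene and strand. A fold enrichment ratio past 2 in either direction counted as higher or lower. A percentile is the percent of peaks or sites with an equal or lower value. Gene spans and promoter windows came from RefSeq (GRCm38.p6), and spans include introns, so distances from the ends are genomic. Figures were drawn with matplotlib 3.10.9. The matching was tested on simulated lists in which copied peaks kept their coordinates, so shifted, split or merged peaks were not covered by that test. Named genes were all 10 clock genes and, of the wider list, those with a paired site past 2-fold or with all peaks in 1 genotype. Members and lists were chosen with earlier results of these data known. Alternatives were a stricter false discovery rate or fold enrichment, other overlaps, centring, a ratio past 1.5 and matching by position.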

Additional observations from a re-analysis of the deposited data

How the results depend on the processing

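Of 28 alternative values, 26 stayed within 1.5 times the value reported. The exceptions were the number of paired clock gene sites higher in *Wtap*-HKO livers, which was 1 as reported (*Nr1d1*) and 0 with a fold enrichment of at least 2, an alternative chosen after seeing the data, and the number of paired clock gene sites lower in *Wtap*-HKO livers, 0 at a ratio past 2 and 1 at a ratio past 1.5, which was the *Per2* site with a ratio of 0.638. The median ratio of paired clock gene sites was 0.975 as reported and 0.916 with a false discovery rate under 1e-05. It was 0.820 with a fold enrichment of at least 2 and 1.03 where 50% of the exonic bases had to be shared. The median thus lay on either side of 1 with the choice of overlap. The fold enrichment filter left out paired sites with a low *Wtap* flox/flox value, at *Dbp* (1.66), *Nr1d1* (1.88) and *Per1* (1.47). Their ratios were all above 1, so leaving them out could only lower the median. Centring on the median of all paired sites, not among the 28, multiplies every ratio by 1.005 and is no check of single sites. Among the 28, the values for overlap of whole spans could not move, since every clock gene peak lay in 1 block. The value that also took sites with several peaks could not move either, as no clock gene had such a site. Matching by position added the ENSMUSG00000106831 peak within *Clock*, giving 14 and 12 peaks. No paired analysis was possible because the deposited lists combine the replicates, and no replicate was left out. The depth of the libraries is unknown, so a peak missing from 1 list was not shown to be absent there. Exon and UTR placement and most of the sequence under peaks were not analysed here.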
